A study of Mus musculus with 10 samples.

Results

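The comparison described here sets cells that had divided once on average, 96 h after the reprogramming factors were switched on, against serum-starved cells in which the factors were never induced. It uses 4 of the 10 Affymetrix arrays of the series, 2 arrays titled as the 1-division cohort and 2 titled as the starved control, chosen by their titles and paired by replicate number. All 10 arrays hybridised total RNA from secondary inducible mouse embryonic fibroblasts (MEFs) of a 129/SvJ x C57/B6 hybrid strain. These cells carry doxycycline-inducible copies of Pou5f1, Sox2, Klf4 and Myc, in the control as well as in the induced cohorts. Control cells stood in 0.5% fetal bovine serum (FBS) for 96 h without doxycycline. The 1-division cells, and the further cohorts of 0, 2, and 3 or more average divisions, received doxycycline (labelled 2 ug/ul) in 15% FBS for 96 h. Induction, serum and division history therefore change together between the 1-division cells and the control, and their shares cannot be told apart in these arrays. The way cells were sorted into cohorts by division number was not given in the sources used here.

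Secondary MEFs come from embryos made with reprogrammed cells, so that the same factor transgenes can be switched on in nearly every cell. Early in such an induction, fibroblasts are known to enter the cell cycle, lose extracellular matrix and contractile genes and gain epithelial genes, while the pluripotency network, a set of transcription factors around Pou5f1, Sox2 and Nanog, is activated late and in few cells. Serum starvation takes fibroblasts out of the cell cycle into quiescence, a reversible rest in which growth and division genes are low.

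The 5 groups held 2 arrays each. The labels call the control samples biological replicates and the 1-division samples only replicates. Nothing in them names separate cultures or animals, so the spread behind the p-values below may be technical. Unless stated otherwise, that spread was estimated over all 5 groups, after the replicate block was taken out. It is not the spread of the control and 1-division arrays alone. Control and 1-division arrays belong to different registered sets, 4 arrays registered earlier (control and 3 or more divisions) and 6 later (0, 1 and 2 divisions), and set and group cannot be told apart for this pair of groups. Array medians lay between 31.4 and 33.95 intensity units, and precision is limited by the small number of arrays. The 3' minus 5' signal of the Gapdh control probe sets, a measure of RNA or labelling quality, was 0.06 and 0.03 log2 units in the control and 0.22 and 0.22 in the 1-division arrays. For Actb it was 0.26 and 0.26 against 0.47 and 0.29. The part of RNA quality in the differences below was not tested. As these are bulk samples, fewer cells of a type and less RNA per cell cannot be told apart either.

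All values are log2 intensities of 1 probe set per gene, with replicate 1 before replicate 2. All differences are log2 differences (n = 2 arrays per group). A value after ± is the standard error from the fit of all 5 groups, not the spread of the compared arrays alone. A gene was called when limma's moderated test, with the replicate number as a block, gave a Benjamini-Hochberg adjusted p under 0.05 over 18194 genes. Of these, 1277 genes (7.02%) were called between 1 division and the control, 813 higher (4.47%) and 464 lower (2.55%), and 437 (2.4%) differed at least 2-fold. The median difference of all genes was 0.00. Without the block 226 genes (1.24%) were called, 171 higher (0.94%) and 55 lower (0.302%), and all 226 were also among the 1277. A floor of 16 under the dim values, in place of 1, gave 383 calls, of which 280 were among the 1277. A fit of the 4 arrays alone without the block gave 0 (1801 at an unadjusted p under 0.05). Each pairing of same-numbered arrays gave its own estimate of every difference, and the plot of the replicate 1 pair against the replicate 2 pair shows how far these agreed gene by gene. Leaving out 1 array in turn gave 404 calls without 1-division replicate 1, 188 without 1-division replicate 2, 589 without control replicate 1 and 394 without control replicate 2. In such a fit the lone array of a group is assumed to vary like the other groups. Where counts "with 1 array left out" follow, they stand in that same order of arrays. The gene lists were chosen with earlier results of these data known, so no list's count below is independent evidence of direction.

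**Figure D1:**
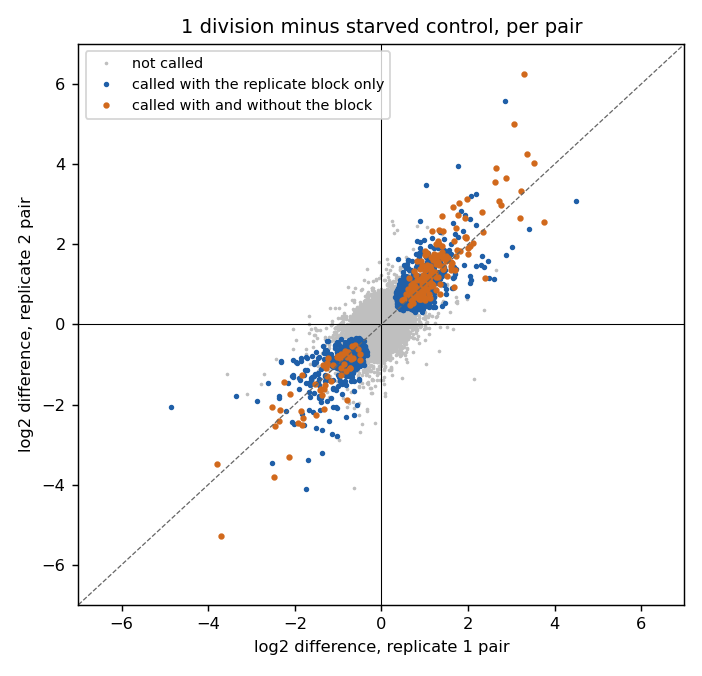
Log2 difference between 1 division and starved control for each of 18194 genes, replicate 1 pair on the horizontal axis and replicate 2 pair on the vertical axis; the dashed line marks equal differences. Blue points are genes called only with the replicate block, orange points the 226 genes called with and without it, and grey points were not called.

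The largest rises included several genes of surface epithelia. Aldh3a1, an aldehyde dehydrogenase abundant in cornea and stomach lining, stood at 6.64 and 4.33 in the control and at 9.94 and 10.58 after 1 division. It rose by 4.77 ± 0.54, or 27.4-fold (limma adjusted p = 0.0039 with the block, 0.0253 without, and 0.0589 with the floor of 16). The difference was 3.30 in the replicate 1 pair and 6.25 in the replicate 2 pair. The control arrays differed from each other more than the 1-division arrays did. Both 1-division values lay above both control values, as the rule that chose the largest rises required. Krt16, a keratin of activated epidermis, went from 3.59 and 3.76 to 6.96 and 8.01, a rise by 3.81 ± 0.44 (adjusted p = 0.0045, 0.019 without the block). Slurp1, a secreted protein of keratinocytes, went from 5.41 and 5.22 to 8.93 and 9.26 (13.8-fold, adjusted p = 0.0031, 0.0245 without the block). In the starved cells Krt16 lay at the level of the dimmest genes. No detection call was used, so the size of a rise from such a level depends on the floor set under dim values. With a floor of 16 Krt16 was 11.2-fold higher and no longer called (adjusted p = 0.0657). Aldh3a1 lost its call at that floor with an unchanged difference of 4.77, so a lost call there does not by itself mark a dim gene.

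Crym, a cytosolic protein that binds thyroid hormone, was at 3.47 and 3.29 in the control and at 6.32 and 8.87 after 1 division, a rise whose call was lost without the block (adjusted p = 0.0071 and 0.142). Ces1f, a carboxylesterase, rose from 3.95 and 3.18 to 7.0 and 8.20. Stmn2, a microtubule regulator best known from neurons, read 4.44 and 7.49 in the control against 8.93 and 10.56, a 13.8-fold rise that was not called without the block (adjusted p = 0.152). Its control arrays lay 3 log2 units apart. Both pairs moved the same way, which the rule that chose the largest rises required. Il1rn, the secreted antagonist of the interleukin-1 receptor, rose 8.94-fold from 5.93 and 7.68 to 9.69 and 10.25. Mal, a membrane protein of apical transport in epithelia, rose from 3.74 and 3.76 to 6.38 and 7.65. The control values of Crym, Ces1f and Mal were as dim as those of Krt16. With the floor of 16 the 3 genes were 12.1-fold, 12.1-fold and 8.09-fold higher, and none of them was called (adjusted p = 0.0835, 0.0735 and 0.1). Pcolce2, an enhancer of procollagen processing, rose 9.64-fold from 6.55 and 5.62 to 9.44 and 9.28.

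Herc1, a large ubiquitin ligase, had the smallest adjusted p of the comparison. It was at 6.94 and 6.93 in the control and at 10.18 and 10.26 after 1 division, a 9.70-fold rise (3.28 ± 0.12, adjusted p = 3.7e-05, 6.4e-05 without the block). Another Herc1 probe set read 5.51 and 4.87 in the control and 7.83 and 7.79 after 1 division, and another, dim one read 4.55 and 4.89 against 4.45 and 4.62. The probe sets of this gene therefore disagree, with a pair of them higher after 1 division and the dim one within its replicate spread. At the probe set used, the difference from the control was 3.56 after 0 divisions, 3.42 after 2 and 3.47 after 3 or more. The rise was thus not particular to the 1-division cells.

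**Figure D2:**
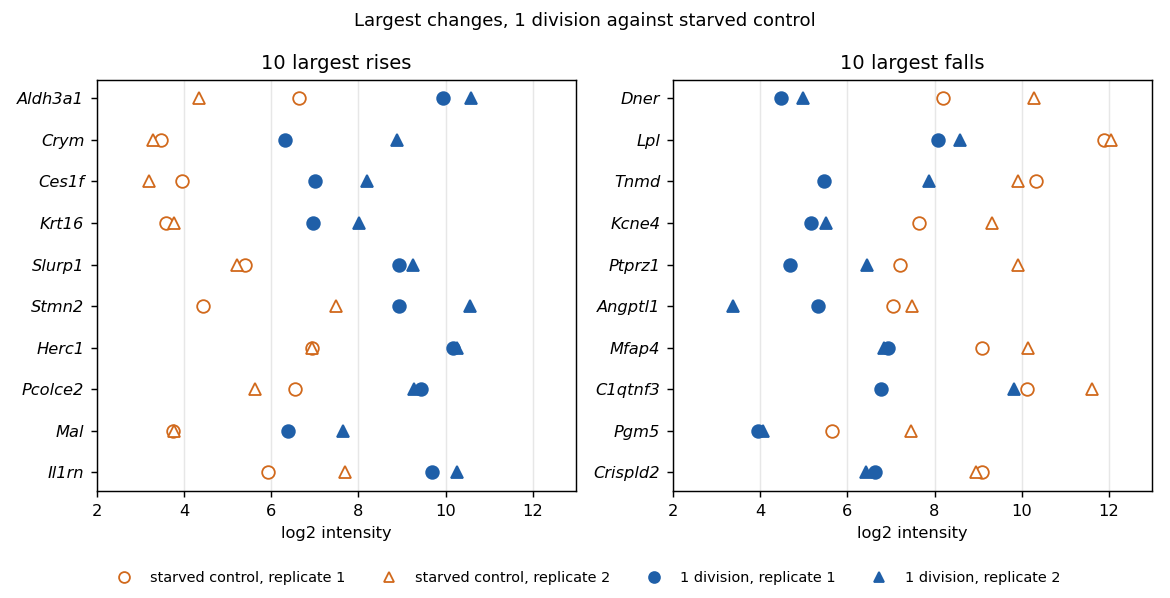
Log2 intensity of the 10 largest rises (left) and 10 largest falls (right) among called genes, with open orange symbols for the starved control and filled blue symbols for 1 division, circles for replicate 1 and triangles for replicate 2. Aldh3a1 goes from 6.64 and 4.33 to 9.94 and 10.58, and Dner from 8.19 and 10.29 to 4.48 and 4.99.

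Among the falls, Dner, a transmembrane Notch ligand, showed the largest. It stood at 8.19 and 10.29 in the control and at 4.48 and 4.99 after 1 division and fell by 4.5 ± 0.34 on the log2 scale, or 22.6-fold (adjusted p = 0.0013, 0.0251 without the block). Lpl, the lipoprotein lipase that releases fatty acids from circulating lipids, went from 11.89 and 12.06 to 8.09 and 8.58, a 12.4-fold fall (adjusted p = 0.00082, 0.0187 without the block). Lpl was among the bright genes of the starved cells and remained measurable after 1 division. Kcne4, a potassium channel subunit, fell 8.89-fold from 7.65 and 9.32 to 5.16 and 5.50. Crispld2, a secreted glycoprotein, fell 5.61-fold from 9.09 and 8.96 to 6.63 and 6.44. Its mean was already 6.74 after 0 divisions, against 6.53 after 1. The other 0-division cohort differences from the control were -3.90 for Dner, -2.19 for Lpl and -2.57 for Kcne4.

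Further large falls rested more on the pairing. Tnmd, a membrane glycoprotein of tendon, went from 10.33 and 9.92 to 5.47 and 7.87 (11-fold, adjusted p = 0.0173, 0.145 without the block). Ptprz1, a receptor phosphatase, went from 7.20 and 9.91 to 4.68 and 6.45 (7.96-fold, adjusted p = 0.005, 0.231 without the block). Angptl1, a secreted angiopoietin-like protein, went from 7.06 and 7.48 to 5.32 and 3.38 (7.56-fold, 0.124 without the block). For C1qtnf3, a secreted C1q-like protein, replicate 1 fell from 10.13 to 6.76 and replicate 2 from 11.62 to 9.83 (5.96-fold, 0.406 without the block). Pgm5, a protein of cell adhesion sites, fell 5.82-fold from 5.66 and 7.45 to 3.96 and 4.06 (0.0571 without the block). Its mean was already 4.03 after 0 divisions, against 4.01 after 1. At 0 divisions the difference from the control was -2.17 for Tnmd, -1.78 for Ptprz1, -2.41 for Angptl1 and -1.15 for C1qtnf3. In each of these 5 genes both 1-division arrays lay below both control arrays, which the rule that chose the largest falls required.

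Of the 4 induced factors, Pou5f1 and Myc rose at their probe sets. Pou5f1 was at 3.92 and 3.61 in the control and at 5.87 and 5.77 after 1 division, a rise by 2.05 ± 0.30 (adjusted p = 0.0092, 0.0437 without the block). Its control values were dim too, and with the floor of 16 it was 3.52-fold higher and not called (adjusted p = 0.0993). Myc rose 2.93-fold from 7.30 and 8.59 to 8.97 and 10.02 (adjusted p = 0.0125, 0.177 without the block). With the floor of 16 its difference was unchanged at 1.55, and it was not called either (adjusted p = 0.0866). Sox2 read 4.10 and 3.55 against 3.71 and 3.92 (-0.01 ± 0.19), and Klf4 read 10.35 and 10.62 against 10.13 and 10.14 (-0.35 ± 0.17, adjusted p = 0.272). The Klf4 level of the starved cells was thus already high, and the Sox2 probe set was at the dim end in all 4 arrays. Another Klf4 probe set read 9.31 and 9.47 in the control and 8.86 and 9.18 after 1 division. Whether a probe set detects the transgene, the endogenous gene or both was not analysed here. In the fit of all 10 arrays 2 of the 4 factors were called, where 7.02% of all genes were, and 1 was called without the block. The median of the 4 was 0.77, and 0.99, 0.55, 0.71 and 0.83 with 1 array left out.

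None of 33 measured genes of the pluripotency network passed the test, where 7.02% of all genes did. At an unadjusted p under 0.05 there were 4 of the 33, against 21.9% of all genes, and the median difference was 0.00. Nanog, a defining factor of that network, read 3.28 and 3.51 in the control and 3.40 and 3.50 after 1 division (0.05 ± 0.15). Klf2 showed the largest difference of the list, with 9.23 and 9.05 against 6.80 and 8.18 (-1.65 ± 0.54, adjusted p = 0.112). Among the fits with 1 array left out, only that without control replicate 2 called a gene of the list, 1 gene that was lower.

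Surface proteins used to follow reprogramming behaved unequally, with 3 of 14 measured members higher (21.4%, against 4.47% of all genes) and 0 lower (1 higher without the block, 2, 2, 2 and 3 with 1 array left out). Cd24a, a mucin-like glycoprotein gained on the way to pluripotency, went from 7.10 and 7.69 to 9.82 and 10.77 (7.46-fold, adjusted p = 0.0024, 0.019 without the block). Cd44, a hyaluronan receptor, rose 2.85-fold from 9.46 and 10.37 to 11.07 and 11.78 (0.104 without the block). Cd34, a sialomucin, rose 2.11-fold from 10.13 and 9.22 to 11.18 and 10.32, by a near-equal step in both pairs (0.374 without the block). Cdh1, the epithelial cadherin, read 3.22 and 3.52 against 4.84 and 4.71 (1.40 ± 0.39), and its adjusted p of 0.0698 did not pass. Thy1, a fibroblast surface protein, read 10.68 and 11.37 against 10.60 and 10.51 (-0.47 ± 0.25, adjusted p = 0.32). Epcam (6.39 and 6.11 against 6.53 and 6.21) and Fut4, the enzyme behind the SSEA-1 epitope (3.70 and 3.95 against 3.75 and 3.62), lay within their replicate spread.

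Most cell division genes rose. Of 34 measured mitosis genes 28 were higher and 0 lower, where 4.47% of all genes were called higher, and the median difference was 1.04 against 0.00 over all genes. In 33 of the 34 both 1-division arrays lay above both control arrays, as they did in 22% of all genes. Without the block 12 were called. With 1 array left out 3, 6, 29 and 6 were called, with medians of 0.93, 1.17, 1.29 and 0.79. Anln, the actin-binding scaffold of the cleavage furrow, went from 8.24 and 8.25 to 9.87 and 9.79 (3.0-fold, 1.58 ± 0.17, adjusted p = 0.0038, 0.0186 without the block). Bub1b, a kinase of the spindle checkpoint, went from 6.10 and 5.68 to 7.43 and 7.15 (2.64-fold, 0.0234 without the block). Kif2c, a kinesin that corrects wrong microtubule attachments, went from 6.10 and 5.29 to 7.10 and 7.01 (2.57-fold, 0.0439 without the block). In these genes the 1-division arrays lay close to each other and apart from both control arrays.

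Promoters of mitosis genes are known for a pair of short elements. The CCAAT box is bound by the factor NF-Y. The cell cycle genes homology region (CHR) is bound by the DREAM complex, which holds these genes down in quiescence. The 100-base stretches below come from the 250 bases before the RefSeq start (build GRCm38.p6) and are shown because these genes rose after 1 division. They were picked after the values were seen, for holding these elements close together. Capitals mark CCAAT or its reverse ATTGG, and CHR as TTTGAA or its reverse TTCAAA. The Cdc20 stretch lies at chr4:118437344-118437443 on the minus strand, that of Top2a at chr11:99024190-99024289 on the minus strand and that of Ube2c at chr2:164769829-164769928 on the plus strand.
Cdc20: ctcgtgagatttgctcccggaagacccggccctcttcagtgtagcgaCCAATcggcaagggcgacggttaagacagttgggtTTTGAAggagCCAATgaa
Top2a: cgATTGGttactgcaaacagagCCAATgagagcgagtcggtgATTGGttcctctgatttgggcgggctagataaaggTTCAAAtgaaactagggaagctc
Ube2c: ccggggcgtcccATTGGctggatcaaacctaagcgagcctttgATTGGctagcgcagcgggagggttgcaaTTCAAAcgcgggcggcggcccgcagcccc

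Cdc20, the activator of the anaphase ligase, went from 9.46 and 8.96 to 10.60 and 10.35 (2.40-fold, adjusted p = 0.0076, 0.0295 without the block). Top2a, the topoisomerase that untangles sister chromatids, went from 8.33 and 7.55 to 9.06 and 8.81 (2.00-fold, 0.0962 without the block). Ube2c, the ubiquitin-conjugating partner of the anaphase ligase, went from 8.77 and 8.39 to 9.49 and 9.56 (1.93-fold, 0.0716 without the block). Promoters matched 28 of the 34 mitosis genes and 14453 of the 18194 genes tested by symbol. CCAAT on either strand stood in 23 of the 28 (82.1%) and in 39.4% of all matched promoters. CHR, searched as TTTGAA or TTCGAA on either strand, stood in 11 of 28 (39.3%) against 15.7%. These shares describe letters, not bound sites. Among all 672 matched genes called higher the shares were 43.3% and 13.5%.

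DNA replication genes moved less evenly, with 12 of 38 measured members higher and 0 lower and a median of 0.52 (2 called without the block, and 2, 1, 10 and 2 with 1 array left out). The share called was 31.6%, against 7.02% of all genes, and the median with 1 array left out was 0.37, 0.65, 0.70 and 0.29. Uhrf1, which carries DNA methylation to the new strand, went from 6.21 and 4.91 to 7.09 and 6.82 (2.63-fold, adjusted p = 0.0362, 0.145 without the block). Mcm6, a subunit of the replicative helicase, went from 8.89 and 7.65 to 9.95 and 9.33 (2.58-fold, 0.18 without the block). Tk1, the thymidine kinase of S phase, went from 6.80 and 5.82 to 7.95 and 7.39 (2.57-fold, 0.0896 without the block). For all 3 the difference was larger in the replicate 2 pair, where the control array was lower. The Mcm6 stretch at chr1:128359706-128359805 on the minus strand (GRCm38.p6) is shown for its E2F element, TTTGGCGC, in capitals beside reversed CCAAT boxes (ATTGG).
Mcm6: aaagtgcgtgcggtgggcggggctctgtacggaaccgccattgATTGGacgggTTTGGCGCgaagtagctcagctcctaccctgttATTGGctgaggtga

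E2F factors switch on S phase genes. Searched as TTTGGCGC, TTTCGCGC, TTTCCCGC or TTTGCCGC on either strand, an E2F element stood in 9 of 31 matched replication promoters (29%) and in 3.15% of all. The regulators of the G1 to S step had 9 of 24 members higher and 1 lower, 41.7% called against 7.02% of all genes (3 and 0 without the block, 3, 3, 3 and 2 higher with 1 array left out). Ccne2 rose 2.07-fold from 6.47 and 5.98 to 7.46 and 7.09, and Ccne1, the other cyclin E, 2.01-fold from 7.74 and 7.99 to 8.74 and 9.0. E2f8, a repressive E2F, rose 2.02-fold from 5.79 and 5.41 to 6.71 and 6.52. E2f1 was the member that fell, by 0.55 ± 0.10, from 7.77 and 7.67 to 7.24 and 7.10 (adjusted p = 0.021, 0.0546 without the block). Among 22 cyclin-dependent kinase inhibitors and p53 targets 2 were higher and 2 lower (18.2% called), 0 of them called without the block or with any 1 of the 4 arrays left out. Over all genes 7.02% were called. Cdkn1c, the imprinted inhibitor p57, read 10.83 and 9.61 in the control and 8.81 and 7.13 after 1 division (4.76-fold lower). Gadd45b, a stress-induced gene, was 1.89-fold lower, and Perp, a desmosome-linked p53 target, 2.53-fold higher.

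Ribosome biogenesis genes, which make and modify ribosomal RNA and are known Myc targets, were higher in most members. Of 38 measured members 29 were higher and 0 lower, with a median of 0.59 (76.3% called, against 7.02% of all genes). In 35 both 1-division arrays lay above both control arrays, as they did in 22% of all genes. Without the block 6 were called, and with 1 array left out 15, 3, 9 and 10. Dkc1, the pseudouridine synthase of box H/ACA particles, went from 8.61 and 8.60 to 10.14 and 10.26 (3.02-fold, 1.60 ± 0.11, adjusted p = 0.00082, 0.0056 without the block). Wdr12, a ribosome assembly factor, went from 8.39 and 8.64 to 9.53 and 9.95 (2.33-fold, 0.0236 without the block). Nop56, a core protein of box C/D particles, went from 9.31 and 9.55 to 10.17 and 11.24 (2.42-fold, 0.156 without the block), the latter with 1-division arrays far apart. The E-box CACGTG, a Myc binding motif, stood in 3 of 34 matched ribosome biogenesis promoters (8.82%) and in 8.73% of all matched promoters.

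Genes of serine, one-carbon and nucleotide synthesis had 12 of 23 members higher and 1 lower, 56.5% called against 7.02% of all genes, with a median of 0.54 (1 and 0 without the block, 7, 1, 2 and 1 higher with 1 array left out). Ppat, the first enzyme of purine synthesis, rose 2.33-fold from 6.19 and 6.13 to 7.19 and 7.57. Atic, which completes the purine ring, rose 2.09-fold from 9.67 and 9.84 to 10.93 and 10.71 (adjusted p = 0.0047, 0.0186 without the block). Mthfd2, a mitochondrial folate enzyme, fell 2.75-fold from 9.46 and 9.99 to 7.48 and 9.05 (0.227 without the block). The purine enzymes and Mthfd2 thus moved in opposite directions within the same list.

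In glycolysis 4 of 19 members (21.1%, against 4.47% of all genes) were higher and 0 lower (0 without the block, 3, 1, 2 and 2 with 1 array left out). They included the lactate transporter Slc16a1 (2.74-fold, from 7.52 and 6.84 to 8.86 and 8.41), the glucose transporter Slc2a3 (2.53-fold, from 6.17 and 6.98 to 7.25 and 8.59) and pyruvate kinase Pkm (1.84-fold). None of 25 oxidative phosphorylation genes passed (median 0.17), nor did any of 20 cholesterol synthesis genes (median -0.16, and -0.03, -0.31, -0.33 and -0.00 with 1 array left out). Of 23 glutathione and oxidative stress genes 3 were higher and 1 lower, 17.4% called against 7.02% of all genes (1 and 0 without the block, 1, 0, 2 and 2 higher with 1 array left out). Gclc, the limiting enzyme of glutathione synthesis, rose 1.65-fold from 9.06 and 9.16 to 9.76 and 9.90, and the transferase Gstm2 fell 2.06-fold from 9.51 and 10.35 to 8.55 and 9.22. In the heat shock and proteasome list 4 of 28 (14.3%, against 4.47% of all genes) were higher, and 0 were called without the block. They included the chaperonins Hspd1 (1.57-fold), Cct5 (1.43-fold) and Cct6a (1.40-fold). The list's median was 0.17, and 0.23, 0.13, 0.18 and 0.15 with 1 array left out.

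**Figure D3:**
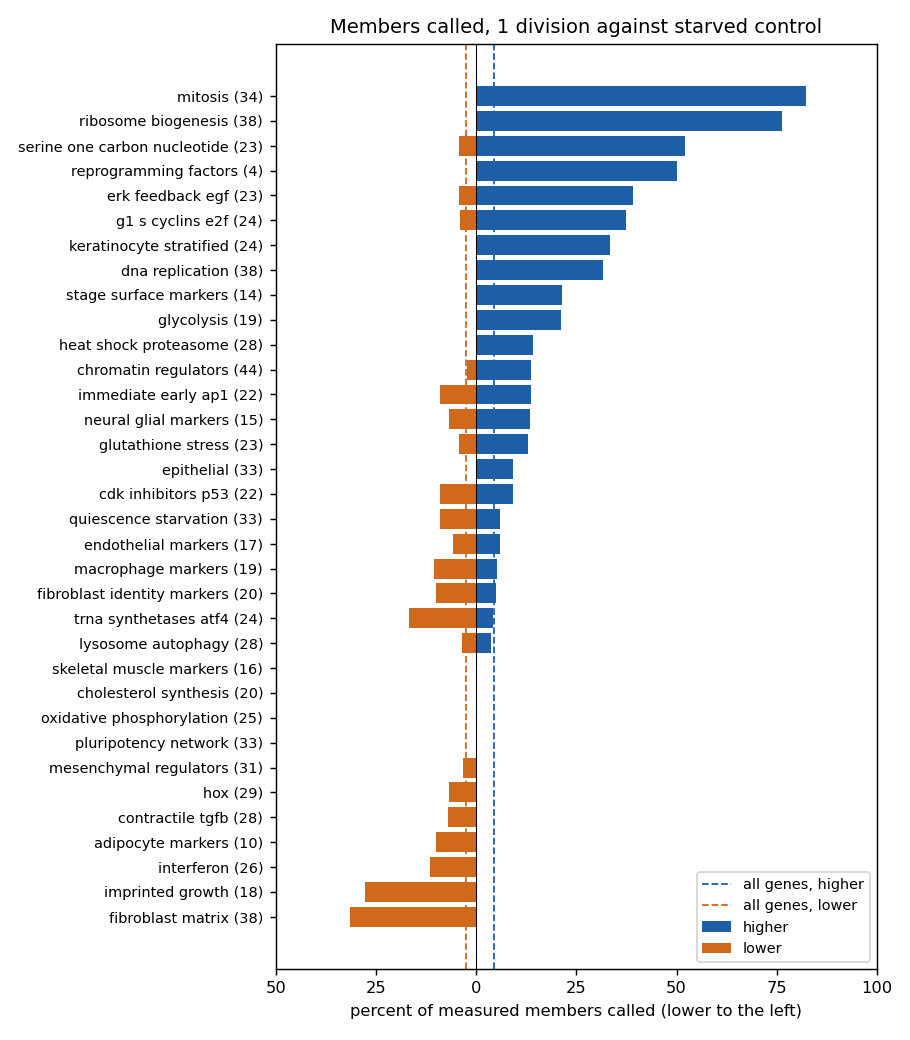
Percent of each gene list's measured members called higher (blue, to the right) or lower (orange, to the left) after 1 division against the starved control, with the number of measured members in parentheses. Dashed lines give the same percent over all genes, 4.47 higher and 2.55 lower; mitosis (28 of 34) and ribosome biogenesis (29 of 38) reach farthest right and fibroblast matrix (12 of 38) farthest left.

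Keratinocyte and stratified epithelium genes changed strongly in some members while many stayed dim. Of 24 measured, 8 were higher (33.3%, against 4.47% of all genes) and 0 lower, with a median of 0.19 (0.18, 0.31, 0.30 and 0.05 with 1 array left out) and a range from -0.31 to 4.77 (5 higher without the block, 8, 4, 6 and 4 with 1 array left out). Besides Aldh3a1, Krt16, Slurp1, Mal and Il1rn, already described, the called members were Fetub, Krt14 and Perp. Fetub, a secreted protease inhibitor, went from 4.59 and 4.41 to 6.36 and 8.35 (7.26-fold, adjusted p = 0.0122, 0.0892 without the block). Krt14, the keratin of basal epidermal cells, went from 4.26 and 4.70 to 6.10 and 7.53 (5.06-fold, 0.0804 without the block). Some of these genes were placed in the list with earlier results of these data known, so the count is no independent evidence of direction.

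General epithelial genes had 3 of 33 members (9.09%) higher, against 4.47% of all genes, and 0 lower, with a median of 0.08 (0.10, 0.04, 0.11 and -0.00 with 1 array left out). The count was 1 without the block and 3, 1, 2 and 1 with 1 array left out. Krt19, a simple epithelial keratin, went from 3.94 and 4.22 to 6.71 and 7.21 (7.37-fold, 2.88 ± 0.30, adjusted p = 0.0031, 0.0143 without the block). Dsp, the desmosome's plakin, went from 5.56 and 6.60 to 7.61 and 9.24 (5.09-fold, 0.116 without the block). Pkp1, a desmosomal plaque protein, rose 2.56-fold from 6.08 and 6.32 to 7.11 and 8.0 (0.0975 without the block). Cdh1 and Epcam of the same list did not pass.

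Some genes of the fibroblast matrix fell. Of 38 measured members 12 were lower, 0 were higher and the others did not pass, where 2.55% of all genes were called lower, and the median difference was -0.39. In 24 of the 38 both 1-division arrays lay below both control arrays, as they did in 18.3% of all genes. Without the block 3 were called, and with 1 array left out 5, 2, 6 and 6. Mfap4, a protein of elastic microfibrils, went from 9.08 and 10.15 to 6.94 and 6.85 (6.59-fold lower, adjusted p = 0.0024, 0.0245 without the block). Dpt, which organises collagen fibrils, went from 12.16 and 11.26 to 9.79 and 8.85 (5.25-fold lower, 0.0421 without the block). Smoc2, a calcium-binding matricellular protein, went from 10.66 and 10.84 to 8.31 and 8.70 (4.73-fold lower, 0.0143 without the block). Tnmd had the largest fall of the list, and Dcn, Col12a1, Col5a1, Tnc, Thbs2, Eln, Col8a2 and Mfap5 fell by 0.64 to 1.89 on the log2 scale. The bright fibrillar collagens did not pass: Col1a1 read 13.91 and 14.13 against 13.41 and 13.86, and Col1a2 read 14.36 and 14.49 against 14.00 and 14.20.

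Contractile and TGF-beta genes had 0 of 28 members higher and 2 lower, 7.14% called against 7.02% of all genes, with a median of -0.42 that was -0.32, -0.47, -0.17 and -0.45 with 1 array left out (0 lower without the block, 1, 2, 1 and 2 with 1 array left out). The share of all genes called lower was 2.55%. Mylk, the myosin light chain kinase, fell 3.08-fold from 8.90 and 9.76 to 7.45 and 7.96, and Ltbp2, a microfibril protein, fell 2.12-fold from 11.18 and 12.51 to 10.00 and 11.52. Acta2, smooth muscle actin, read 14.11 and 14.29 in the control and 13.20 and 14.31 after 1 division. Of 20 fibroblast identity markers 2 were lower and 1 higher (15% called, against 7.02% of all genes), namely P4ha1, a collagen prolyl hydroxylase (2.20-fold lower, from 11.01 and 11.06 to 9.75 and 10.05), Dcn (1.94-fold lower) and S100a4 (1.81-fold higher). Their summed intensity was 193119 and 186313 in the control and 168326 and 153791 after 1 division, and Vim, the intermediate filament of mesenchymal cells, read 14.28 and 14.20 against 14.40 and 14.37. Among 31 mesenchymal regulators 1, Meox1, was lower (1.82-fold), and 0 were called without the block. This was 3.23% of the list, against 2.55% of all genes called lower.

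Imprinted growth genes, many of which are shut down when embryonic tissues mature, had 5 of 18 members lower (27.8%, against 2.55% of all genes) and 0 higher, with a median of -0.33 (-0.54, -0.31, -0.39 and -0.37 with 1 array left out). Without the block 0 were called, and with 1 array left out 2, 0, 2 and 0. Dlk1, a Notch-like inhibitor of differentiation, went from 11.34 and 11.68 to 9.98 and 8.48 (4.86-fold lower, adjusted p = 0.0229, 0.0845 without the block). Peg3, a zinc finger protein, went from 10.20 and 10.90 to 8.65 and 9.20 (3.08-fold lower, 0.251 without the block). Cdkn1c, Ndn and Dcn were the other called members. Of 29 Hox genes, the regulators of body position, 2 were lower (6.9%, against 2.55% of all genes) and 0 higher (0 without the block, 0, 0, 4 and 1 with 1 array left out). Hoxc8 read 7.33 and 8.99 against 5.60 and 8.14, and Hoxd8 read 8.99 and 9.51 against 8.03 and 8.66, each lower within its own pair while the groups overlapped for Hoxc8.

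Interferon-stimulated genes had 0 of 26 members higher and 3 lower (11.5%, against 2.55% of all genes), with a median of -0.40 (0 without the block, 1, 0, 0 and 2 with 1 array left out). Ifit3, an antiviral adaptor, read 9.50 and 9.01 in the control and 8.37 and 6.96 after 1 division (3.01-fold lower, adjusted p = 0.0314, 0.148 without the block), and Mx2 and Psmb8 were lower by 1.40-fold and 1.39-fold. In the list of quiescence and starvation genes 3 of 33 were lower and 2 higher, 15.2% called against 7.02% of all genes (1 and 0 without the block, 1, 0, 1 and 1 lower with 1 array left out). Gas6, a ligand of TAM receptors first cloned from growth-arrested fibroblasts, fell 2.40-fold from 12.29 and 12.08 to 11.03 and 10.80 (0.0234 without the block). Gas2 and Txnip were 1.93-fold and 1.91-fold lower, with calls lost without the block (0.322 and 0.473). Without probe sets ending in _x_at, _s_at or _a_at, Gas2 was read by another probe set and differed by 0.0456. Tob1 and Klf9, both growth-restraining genes, were 1.70-fold and 1.5-fold higher, so the called members of this list did not share a direction. Of 28 lysosome and autophagy genes 1 was higher, the galactosidase Gla (2.57-fold), and 1 lower, the cholesterol transporter Npc1 (1.53-fold). The share called was 7.14%, against 7.02% of all genes.

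Among 22 immediate early and AP-1 genes 3 were higher and 2 lower, 22.7% called against 7.02% of all genes (2 and 0 without the block, 3 higher and 0 lower with any 1 of the 4 arrays left out). Fosl1, an AP-1 subunit, went from 5.87 and 5.45 to 7.59 and 7.85 (4.17-fold, 2.06 ± 0.18, adjusted p = 0.0019, 0.0089 without the block). Egr3, a zinc finger factor induced by growth signals, went from 7.09 and 7.03 to 9.47 and 8.48 (3.76-fold, 0.0559 without the block). Klf10, induced by TGF-beta, rose 2.73-fold from 7.46 and 7.10 to 8.68 and 8.78. The members that fell were Jund and Klf6, by 0.49 and 0.63 on the log2 scale.

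The list of ERK feedback genes and EGF family ligands had 9 of 23 members higher and 1 lower, 43.5% called against 7.02% of all genes, with a median of 0.40 (2 and 0 without the block, 3, 4, 5 and 3 higher with 1 array left out). Phlda1, an ERK target, went from 7.71 and 8.22 to 9.32 and 9.79 (3.0-fold, 1.59 ± 0.16, adjusted p = 0.003, 0.0339 without the block). Dusp6, the phosphatase that turns off ERK, went from 6.82 and 7.43 to 8.35 and 8.63 (2.57-fold, 0.0339 without the block). Errfi1, an inhibitor of the EGF receptor, went from 9.08 and 8.41 to 10.48 and 9.61 (2.47-fold, 0.168 without the block). Among ligands, Ereg (2.00-fold), Btc (1.80-fold) and Tgfa (1.73-fold) were higher and Nrg1 was lower (2.22-fold). Ligand and feedback genes were therefore both among the risen members, and the neuregulin was the exception.

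Some genes of the ATF4 pathway, which answers amino acid shortage and endoplasmic reticulum stress, were lower. In the list of ATF4 targets and tRNA synthetases 4 of 24 were lower, 1 higher and 19 not called, with 20.8% called against 7.02% of all genes (0 and 0 without the block, 1, 2, 1 and 0 lower with 1 array left out). The list's median was -0.18, and 0.06, -0.31, -0.16 and -0.06 with 1 array left out. Trib3, a pseudokinase, went from 9.08 and 10.13 to 6.20 and 8.21 (5.28-fold lower, adjusted p = 0.013, 0.118 without the block). Chac1, which degrades glutathione, went from 9.13 and 9.85 to 6.81 and 8.92 (3.09-fold lower, 0.305 without the block), and Ddit3, the factor CHOP, from 9.64 and 10.37 to 8.51 and 9.33 (2.12-fold lower). Atf4 itself fell 1.59-fold from 12.13 and 12.29 to 11.39 and 11.69. Within each pair the 1-division array was lower for all 4 genes.

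Of 44 chromatin regulators 6 were higher and 1 lower, 15.9% called against 7.02% of all genes (1 and 0 without the block, 0, 1, 3 and 1 higher with 1 array left out). Hells, a remodeller needed for DNA methylation, rose 2.08-fold from 5.95 and 5.68 to 7.10 and 6.64, and Ezh2, the methyltransferase of Polycomb complex PRC2, rose 1.70-fold from 7.19 and 6.67 to 7.83 and 7.55. Hmga2, an architectural protein of growing embryonic tissue, rose 1.63-fold from 10.79 and 10.87 to 11.67 and 11.40 (0.0903 without the block). Dnmt3a, a de novo DNA methyltransferase, was the member that fell (1.64-fold, from 8.84 and 8.31 to 8.04 and 7.69).

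Markers of other cell types were looked at across whole lists. The share called was 15.8% for macrophage, 11.8% for endothelial, 10% for adipocyte and 20% for neural and glial markers, against 7.02% of all genes. Macrophage markers summed to 543 and 578 intensity units in the control and to 439 and 504 after 1 division, with 1 of 19 higher (Cd68, 3.11-fold) and 2 lower (Lyz1 and Lyz2, 4.12-fold and 2.11-fold), while Ptprc, the pan-leukocyte marker, read 3.74 and 3.75 against 3.52 and 3.53. Lyz1 differed by 0.18 at another probe set, used when those ending in _x_at, _s_at or _a_at were left out. With 1 array left out, 0, 1, 0 and 0 macrophage markers were lower and 0 higher. Endothelial markers summed to 814 and 1277 against 781 and 887, with Tek higher (3.16-fold) and Flt1 lower (3.49-fold) out of 17, (1 and 0 without the block, 1, 0, 1 and 1 higher and 0, 0, 2 and 0 lower with 1 array left out) and Pecam1 at 3.44 and 3.56 against 3.48 and 3.50. Adipocyte markers summed to 4804 and 4905 against 1487 and 1037, and the one called member of 10 was Lpl. The median difference of the list was 0.00, and without Lpl the other 9 markers summed to 1018 and 643 against 1215 and 654, while the adipocyte hormone Adipoq read 4.04 and 3.21 against 3.54 and 3.47. Neural and glial markers summed to 1928 and 1926 against 2006 and 2889, with Stmn2 and Nefl higher and Gap43 lower out of 15 (0 called without the block, 0, 0, 0 and 1 higher and 0, 0, 1 and 0 lower with 1 array left out). None of 16 skeletal muscle markers passed, and their sum was 494 and 904 against 494 and 1209. The defining markers Ptprc, Pecam1 and Adipoq were at the dim end of the scale in all 4 arrays, but some called members of these lists were brighter. Flt1 read 7.02 and 9.05 in the control and 5.82 and 6.65 after 1 division. Tek read 5.93 and 5.61 against 7.25 and 7.61, and Cd68 read 4.91 and 4.19 against 6.26 and 6.12. Whether other cell types were present was not tested.

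Next the 1-division cells were placed among the other cohorts. Differences from the control are given side by side, as all cohorts share the same control arrays. The median of the mitosis genes was 1.09 after 0 divisions, 1.04 after 1, 1.20 after 2 and 1.79 after 3 or more. For ribosome biogenesis it was 0.72, 0.59, 0.73 and 1.60, and for DNA replication 0.61, 0.52, 0.71 and 1.31. Between 0 divisions and 1, the replicate 1 median of the mitosis genes went from 0.71 to 0.97 and the replicate 2 median from 1.40 to 1.16. For ribosome biogenesis the corresponding medians went from 0.79 to 0.59 and from 0.66 to 0.69. The 2 replicates thus moved in opposite directions for both lists. Keratinocyte genes had medians of 0.16, 0.19, 0.37 and 1.45, and fibroblast matrix genes of -0.32, -0.39, -0.66 and -1.59. The ERK list had 0.03, 0.40, 0.57 and 0.31. These are medians of differences between group means, and the plot by cohort gives the median for each same-numbered pair. On that measure the ERK list stood at 0.38 and 0.49 after 1 division and at 0.52 and 0.48 after 2.

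**Figure D4:**
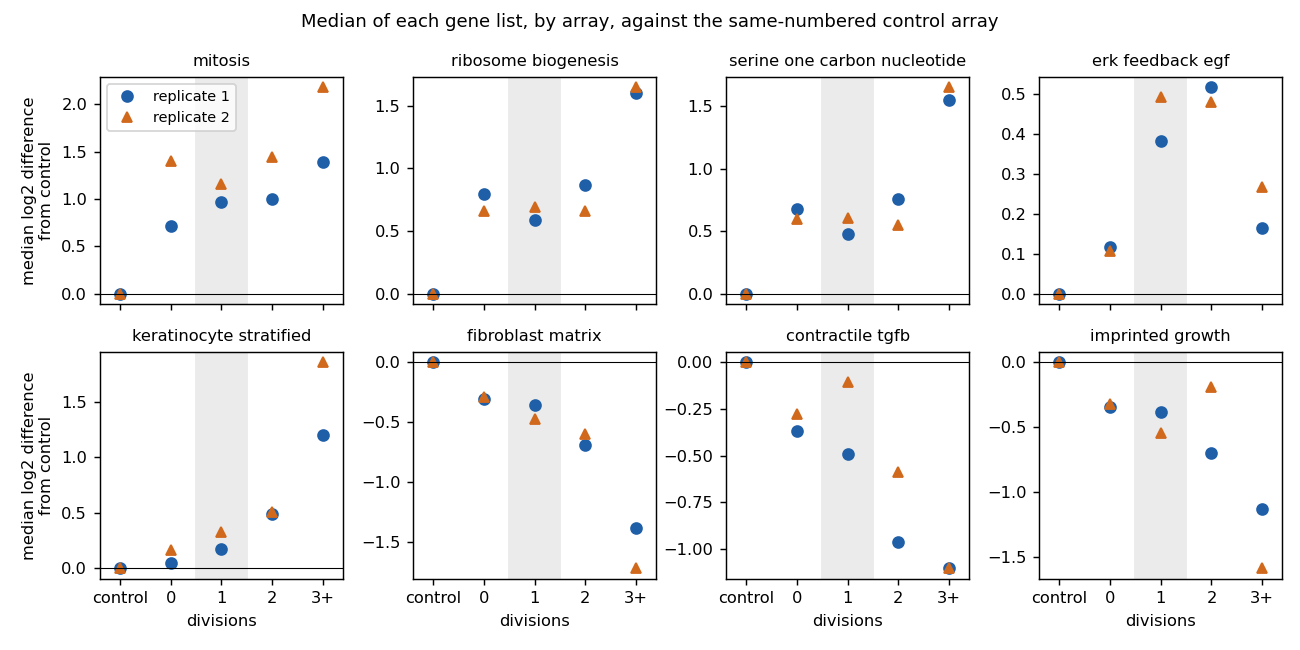
Median over the members of each gene list of the log2 difference from the same-numbered control array, by cohort (average divisions) and replicate, with the 1-division cohort shaded. Vertical scales differ between panels; mitosis and ribosome biogenesis are already raised at 0 divisions, while the ERK list stands near 0.1 at 0 divisions and at 0.38 and 0.49 at 1 division.

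The difference between 1 division and 0 divisions needs no control array and lies within the 6 arrays registered together. Its test was not free of the other arrays, as the spread and the block came from the fit of all groups. That test called 0 of 18194 genes (0%) with limma and 0 without the block. At an unadjusted p under 0.05 there were 996 genes (5.47%). With only the 4 compared arrays in the fit and the block, 67 genes were called. The smallest adjusted p, 0.0835, was that of Myh2, a fast skeletal myosin, at -1.98 (95% interval -2.41 to -1.55). The next were Prg4, the joint lubricant lubricin, at 2.19 (1.53 to 2.85) and Wnk4, a kinase of salt transport, at 1.12 (0.77 to 1.46), each with an adjusted p of 0.373. Myh2, Prg4 and Wnk4 were named after their values were seen.

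For some of the genes named above, chosen after their values were seen, the interval of the 1 against 0 difference shows what these arrays could resolve. Dkc1 differed by 0.12 (-0.12 to 0.37), Anln by 0.33 (-0.06 to 0.73), Pou5f1 by 0.06 (-0.64 to 0.75) and Myc by -0.10 (-0.68 to 0.47). Mal differed by 2.83 (1.67 to 3.98), Aldh3a1 by 2.19 (0.97 to 3.42), Krt19 by 1.48 (0.79 to 2.16) and Lpl by -1.45 (-1.99 to -0.90), with adjusted p of 0.484, 0.718, 0.509 and 0.484. Phlda1 differed by 0.96 (0.60 to 1.31), Hmga2 by 0.86 (0.57 to 1.15) and Errfi1 by 0.78 (0.47 to 1.08), each with an adjusted p of 0.484. E2f8 differed by 0.48 (0.17 to 0.79), Krt16 by 0.94 (-0.07 to 1.96), Egr3 by 0.44 (-0.12 to 1.00) and Perp by 0.57 (-0.06 to 1.19). None of these genes passed after adjustment over all genes. Hmga2 read 10.73 and 10.61 after 0 divisions, 11.67 and 11.40 after 1, 12.00 and 11.77 after 2 and 10.91 and 10.58 after 3 or more, so its 1-division and 2-division arrays lay above those of every other group.

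Between 2 divisions and 1, limma again called 0 genes (0%), with 977 (5.37%) at an unadjusted p under 0.05 and 0 calls without the block. A fit of the 6 arrays of 0, 1 and 2 divisions called 1, and 5 were called without replicate 2 of the 2-division cohort. The smallest adjusted p, 0.173, was shared by Fbp2, a gluconeogenic enzyme of muscle, at 2.04 (1.5 to 2.58), Krt8, a simple epithelial keratin, at 2.00 (1.48 to 2.52) and Mmp13, a collagenase, at 2.83 (2.04 to 3.61). Krt8 read 5.54 and 5.48 after 1 division against 4.87 and 4.81 in the control, so most of its difference lay after the 1-division stage. In the contractile list 15 of 28 members had an unadjusted p under 0.05 between 2 divisions and 1, against 3 of 28 between 1 and 0. Its median difference was -0.42 from 1 to 2 divisions and -0.11 from 0 to 1. Trib3, Chac1 and Mthfd2 had their lowest means at 2 divisions and read 8.27 and 8.25, 8.85 and 8.78, and 9.50 and 9.87 after 3 or more, above their 1-division means.

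A fit that left out the 1-division arrays called 127 genes between 0 and 2 divisions, 86 higher and 41 lower. It was added after seeing the data. In all 127 the 1-division mean lay between those of 0 and 2 divisions, whereas 44.8% of all genes did so. Choosing genes with a wide gap between the end cohorts makes a middle position more frequent, so the 2 shares are not matched. In 122 of the genes the replicate 1 array lay between the same-numbered arrays of 0 and 2 divisions, in 116 the replicate 2 array did, and in 112 both did (17.3% of all genes). On a scale with 0 at 0 divisions and 1 at 2 divisions, the 1-division mean had a median position of 0.481, with a range of 0.0667 to 0.889. Mal had means of 4.19, 7.02 and 9.27 after 0, 1 and 2 divisions, Aldh3a1 of 8.07, 10.26 and 12.10, and Krt19 of 5.48, 6.96 and 8.65. C1qtnf3 had means of 9.72, 8.30 and 6.22, and Myh2 of 6.37, 4.39 and 3.56. For the genes that rose and for those that fell, the 1-division means were thus intermediate.

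**Figure D5:**
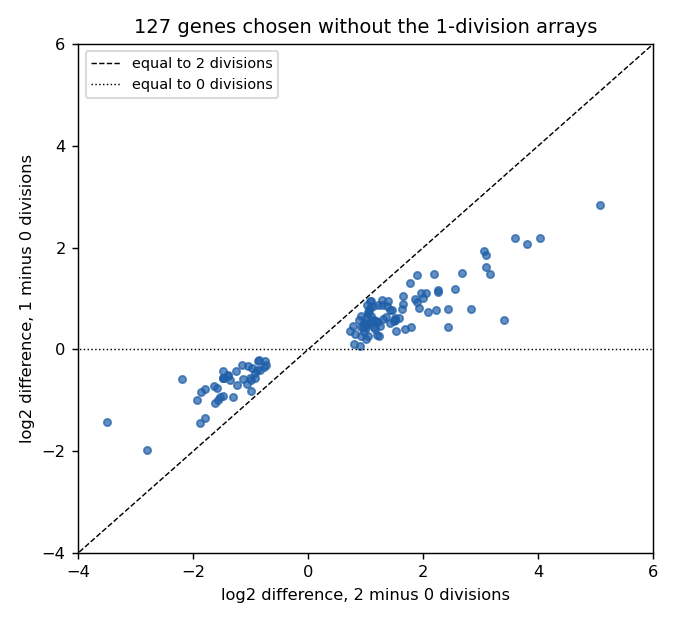
Log2 difference of 1 minus 0 divisions (vertical) against 2 minus 0 divisions (horizontal) for 127 genes called between 0 and 2 divisions in a fit without the 1-division arrays. All points lie between the dotted line (equal to 0 divisions) and the dashed line (equal to 2 divisions), with a median position of 0.481.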

How the data were processed

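Per the labels, total RNA was labelled with biotin and hybridised to Affymetrix mouse arrays. The authors deposited a table of linear intensity for 45101 probe sets and 10 arrays. The submitters' processing notes name RMA for the 4 earlier arrays. For the other 6 the tool was not given in the sources used here. No detection calls were used.

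Values were floored at 1 (0 values moved), set to log2 and quantile normalized over the 10 arrays. Through the platform's gene annotation, 34958 probe sets had 1 gene, 932 several and 9211 were not listed. By gene ID 34754 matched the RefSeq table, and 0 symbols changed. The probe set with the highest mean stood for its gene, which left 18194 genes.

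Limma 3.58.1 in R 4.3.3 (lmFit, eBayes) fitted the 5 groups and the replicate number as a block to 10 arrays (4 residual degrees of freedom), two-sided. The numbers pair the arrays by the data alone: after subtracting group means, arrays sharing a number correlated at r of 0.477 to 0.872 in every pair of groups, over genes above the median level. Alternatives covered scaling, floor, dim genes, probe set choice, block, arrays in the fit and each array left out. The method was tested on simulated data.

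Named genes were the 10 largest rises and 10 largest falls among called genes with groups apart and both pairs moving one way, up to 3 called members per list (the largest difference where 0 were called), and Pou5f1, Sox2, Klf4, Myc, Nanog, Cdh1, Epcam, Fut4 and Thy1. Genes outside this rule (such as Smoc2, Krt14, Fetub, E2f1, Hmga2, Cdc20, Top2a, Ube2c, Ptprc, Vim and those named between cohorts) were chosen after their values were seen. The comparison and the gene lists were chosen with earlier results of these data known. Promoters are RefSeq sequences of build GRCm38.p6.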

Additional observations from a re-analysis of the deposited data

How the results depend on the processing

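The count of genes called between 1 division and the starved control was 1277, and it stayed within 1.5 times of that with no normalization (1339), median centring (1356), genes above the median level (1510 of 9097), the mean of a gene's probe sets (1212), without probe sets ending in _x_at, _s_at or _a_at (1071) and all probe sets tested (1825 of 34958). It was 383 with a floor of 16, 226 with no replicate block and 0 with only the 4 arrays and no replicate block (1801 at an unadjusted p under 0.05). Leaving out 1 array gave 188 to 589. The causes were not tested. Without the block the same-numbered difference between arrays counts as spread. Of 92 called genes named by the rule, 58 lost the call with no replicate block, 65 with the floor of 16, and 60 in at least 1 fit that left out an array, while 32 were called in all 4 such fits. Signs turned for Mgst1 (-0.0020), Gas2 (0.0456) and Lyz1 (0.18) without the _x_at, _s_at and _a_at probe sets, for Sox2 without 1-division replicate 1 (0.20) or control replicate 1 (0.25; range with 1 array left out -0.27 to 0.25), and for Nanog without control replicate 1 (-0.0153; range -0.0153 to 0.12). Between 1 and 0 divisions, 67 genes were called with only the 4 arrays and the block. Between 2 and 1 divisions, 1 was called with only the 6 arrays of 0, 1 and 2 divisions, and 0 to 5 with 1 array left out. No background level is given for dim genes.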

Other observations

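The 9211 probe sets not listed with a gene, 51 of them control probe sets, were tested in a fit of their own. Of these 9211, 52 were higher and 44 lower after 1 division than in the starved control by limma with the replicate block. In the separate fit of the genes 4.47% were higher and 2.55% lower. The 5' probe set of 18S ribosomal RNA, a control feature, read 13.04 and 12.40 log2 units in the starved control and 12.02 and 11.31 after 1 division. The bioB spike-in read 9.42 and 9.62 against 9.09 and 9.37.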
